A study of Homo sapiens with 12 samples.

Results

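HEK293 cells treated with an siRNA against SAFB, the gene for the RNA-binding protein SAFB1, were compared with cells treated with control siRNA. The comparison used the libraries titled SAFB1 KD (3) and control (3), chosen by their titles, which are 6 of the 12 libraries analysed. The cells were Flp-In T-REx HEK293, a derivative of a human embryonic kidney line, and all were transfected with siRNA and collected on the second day. SAFB1 KD cells received 1 siRNA against SAFB together with negative control siRNA, and control cells received control siRNA only, in an amount the methods do not give. Poly(A)-tailed RNA was sequenced with strand information. The other 6 libraries came from cells in which SLTM alone was lowered (SLTM KD, with the same kind of top-up) or SAFB, SAFB2 and SLTM together (triple KD). All 12 libraries were fitted together, so the other 6 share in the estimate of spread behind every p-value. They were also compared with SAFB1 KD or control where this is stated. A single siRNA sequence stood for the knockdown of SAFB, so what follows from lower SAFB and what follows from that siRNA cannot be told apart within this comparison. Libraries with SAFB2 alone lowered were not analysed here.

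SAFB1 is a nuclear protein first described as binding the scaffold attachment regions of DNA, and it carries an RNA-recognition motif. Together with its paralogues SAFB2 and SLTM it binds nascent RNA in introns, with a preference for purine-rich sequence, and it interacts with other RNA-binding proteins and the transcription machinery. An siRNA is loaded into Argonaute, where its guide strand cleaves a fully matching mRNA. It can also lower other mRNAs that pair in their 3′ UTR with the guide's seed (bases 2 to 8), much as a microRNA does.

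The siRNA is shown because its sequence bears on which mRNAs it could pair with. The first line below is the part of the sense strand that equals the SAFB mRNA, with the bases that pair with the seed in capitals. The second is the guide strand inferred as its reverse complement, with the seed in capitals. The last lines are the closest matches in the paralogues SAFB2 and SLTM, with the bases that differ from the sense strand in capitals.
Sense core: ggaccaagaugAUCAGAAa
Guide: uUUCUGAUcaucuuggucc
SAFB2 best match: AgaccaGgaugaGcUgaaa
SLTM best match: AgCccaagaugGuGagGaa
Among annotated transcripts the full match of 19 bases was found in SAFB only, in 5 of its transcripts. It lies in coding sequence of exon 12 of 21 at chr19:5654145-5654163 (GRCh38, plus strand). The SAFB2 match shares 15 of 19 bases (G1A, A7G, U13G and A15U, counted from the 5′ end of the sense core) and lies in exon 12 at chr19:5600167-5600185 on the minus strand. The SLTM match shares 14 (G1A, A3C, A12G, C14G and A17G) and spans a splice junction.

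The libraries were deep and alike. Control libraries held 62104421 to 75533510 gene counts and SAFB1 KD libraries 56856228 to 67842955. Mitochondrial genes took 3.31 to 3.61% of counts in control and 3.40 to 3.68% in SAFB1 KD, and replicates of 1 group differed beyond counting error by a biological coefficient of variation of 2.14%. All 10 genes listed as typical of HEK293, among them PAX2, LHX1 and NEFM, were above 1 CPM (CPM is a count scaled to a common library size), and their summed level overlapped between the groups (1786 to 1818 CPM in control and 1796 to 1845 CPM in SAFB1 KD). Leukocyte markers (8 of 10 tested) summed to at most 1.71 CPM in any of the 6 libraries and squamous markers (4 of 8 tested) to at most 0.709 CPM. Fibroblast markers summed to 15.8 to 18.04 CPM in SAFB1 KD and 16.6 to 17.8 CPM in control, with only COL1A1, COL3A1 and PDGFRA above 1 CPM. Of the colon epithelium markers only LGR5 and CDX2 were above 1 CPM. In bulk RNA a change in the number of cells of a kind and a change in RNA per cell cannot be told apart. The p-values measure spread among 3 libraries a group, which the series calls biological replicates.

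SAFB stood at 231, 235 and 230 CPM in the control libraries and at 45.6, 44.3 and 46.1 CPM in the SAFB1 KD libraries. The target was thus at 19.5% of control in the mean, with the groups far apart (log2 fold change -2.36 ± 0.0261 SE, adjusted p = 1.80e-60, edgeR quasi-likelihood test with Benjamini-Hochberg adjustment over 26688 genes, the test behind every adjusted p below). SAFB2 was at 125, 125 and 129 CPM in control and at 207, 206 and 213 CPM in SAFB1 KD, so each knockdown library lay above each control library. SLTM showed a smaller rise, from 114, 117 and 116 CPM to 135, 139 and 141 CPM (0.26 ± 0.0307, adjusted p = 2.16e-09). SAFB and SAFB2 overlap by their 5′ ends on opposite strands, so their separate counts rest on the strand of the reads.

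Across all genes the knockdown moved many transcripts by a little. At an adjusted p under 0.05, 1345 of the 26688 genes (5.04%) were higher in SAFB1 KD, 1232 (4.62%) were lower, and the calls made up 9.66% in all. The median absolute log2 fold change among called genes was 0.15, and the 90th percentile was 0.52. Larger changes were mostly downward, with 180 genes lower and 94 higher by at least 0.5 on the log2 scale. Calls grew with abundance. Genes under 1 CPM (mean over the 6 libraries) were called in 1.19% of cases and genes over 100 CPM in 25.9%, and the direction turned from 108 higher and 271 lower between 1 and 10 CPM to 453 higher and 165 lower over 100 CPM. The libraries of the groups did not overlap in 25.2% of all genes tested and in 96.4% of called genes, a share the calls themselves make high. The number of higher calls depended on single libraries: it fell to 834, 759 and 750 without control replicates 1, 2 and 3, and to 802 and 755 without SAFB1 KD replicates 1 and 2. In each of these 5 fits lower calls (951 to 1204) outnumbered higher ones, so the balance between directions was not stable. With no filter on low counts the split was 953 higher and 1411 lower.

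**Figure D1:**
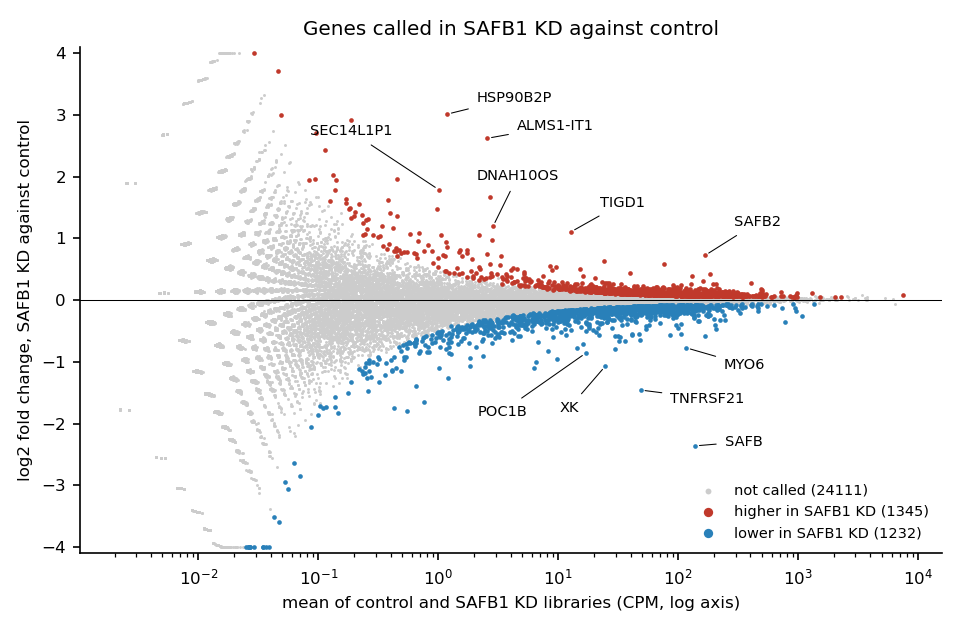
Log2 fold change of SAFB1 KD against control (y axis, values beyond 4 or -4 drawn at the edge) against the mean level of the 6 libraries in CPM (x axis, log scale), 1 point per gene tested, red for 1345 genes called higher and blue for 1232 called lower. Most called genes lie close to 0, with SAFB at -2.36, TNFRSF21 at -1.46, TIGD1 at 1.11 and SAFB2 at 0.73.

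Only 7 genes (0.0262%) passed a test against a 2-fold change. SAFB and TNFRSF21 were lower (0.00749% of all genes). The other 5 (0.0187%) were higher and were lncRNA genes or processed pseudogenes, which are intronless copies of spliced mRNAs: ALMS1-IT1, HSP90B2P, SEC14L1P1, DCAF13P3 and ENSG00000269069. The count of higher genes past 2-fold was 3 without control replicate 1, control replicate 2 or SAFB1 KD replicate 1, 3 with DESeq2 or with only the 6 libraries in the fit, and 2 with limma-voom.

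The 12 lowest coding genes after the naming rule (called, at least 1 CPM in the mean of either group, no overlap between the 3 libraries of each) began with SAFB itself. TNFRSF21, which encodes death receptor 6, was at 74.0, 69.6 and 71.3 CPM in control and at 25.8, 26.7 and 25.7 CPM in SAFB1 KD. XK, a membrane protein of red cells and neurons that carries the Kx blood group antigen, was at 33.2, 33.8 and 33.0 CPM and fell to 16.4, 15.8 and 15.4 CPM. MYO6, the myosin that walks to the minus end of actin filaments, was at 147.2, 147.4 and 146.9 CPM and fell to 87.2, 85.8 and 85.5 CPM. In TNFRSF21 (log2 fold change -1.46 ± 0.0329), XK (-1.07 ± 0.0422) and MYO6 (-0.77 ± 0.0247) the groups stood well apart. SLC25A22, a mitochondrial glutamate carrier, fell from 37.2 ± 1.198 to 21.7 ± 0.290 CPM (SD, n = 3 here and below). POC1B, a centriole protein, fell from 21.8 ± 0.688 to 12.04 ± 0.344 CPM. UBOX5, a U-box ubiquitin ligase, fell from 8.61 ± 0.326 to 4.05 ± 0.205 CPM.

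The other 5 of the lowest coding genes were rare transcripts. SAXO2 and CFAP45, proteins of the ciliary axoneme, went from 3.08 to 1.64 CPM and from 1.69 to 0.707 CPM. ZNF814, a zinc-finger gene, was at 2.71, 2.44 and 2.28 CPM in control and at 0.874, 1.02 and 1.68 CPM in SAFB1 KD, the widest relative spread of the 12 within the knockdown group. APLF, which acts in the repair of DNA breaks, fell from 1.58 to 0.861 CPM and TEX22 from 1.07 to 0.595 CPM. Adjusted p-values over these 12 genes were at most 0.00203, and each stayed called under every alternative.

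The siRNA's own sequence was compared with the 3′ UTRs of 15689 tested coding genes whose 3′ UTR had at least 50 bases. The mRNA word that pairs with guide bases 2 to 8 is AUCAGAA, searched on the mRNA strand as ATCAGAA. It was found in 390 of 1010 genes called lower (38.6%), 142 of 1219 called higher (11.6%) and 2168 of 13460 not called (16.1%), or 17.2% of all. Genes called lower had longer 3′ UTRs (median 1872.5 bases beside 1288 and 1230.5), but the order was the same at each length. Between 500 and 1500 bases the shares were 25.6% (lower), 4.96% (higher) and 7.83% (not called), and from 3000 bases on they were 58.7%, 31.8% and 43.1%. For the word with 1 more A, opposite guide base 1, the shares were 22.4%, 3.36% and 6.22%. The word that pairs with the seed of the other siRNA strand (CTTGGTC) was in 11.5%, 9.52% and 9.37%, and that of the SLTM siRNA (ATTCGTG) in 2.28%, 2.54% and 2.18%. Outside the 3′ UTR, in the rest of the transcript, the word of the SAFB1 siRNA was also more frequent among lower genes, at 30.4% beside 16.0% (higher) and 18.6% (not called). These are shares of genes, given as a description with no test. What part of the lower calls comes from pairing with the siRNA and not from lower SAFB was not tested.

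**Figure D2:**
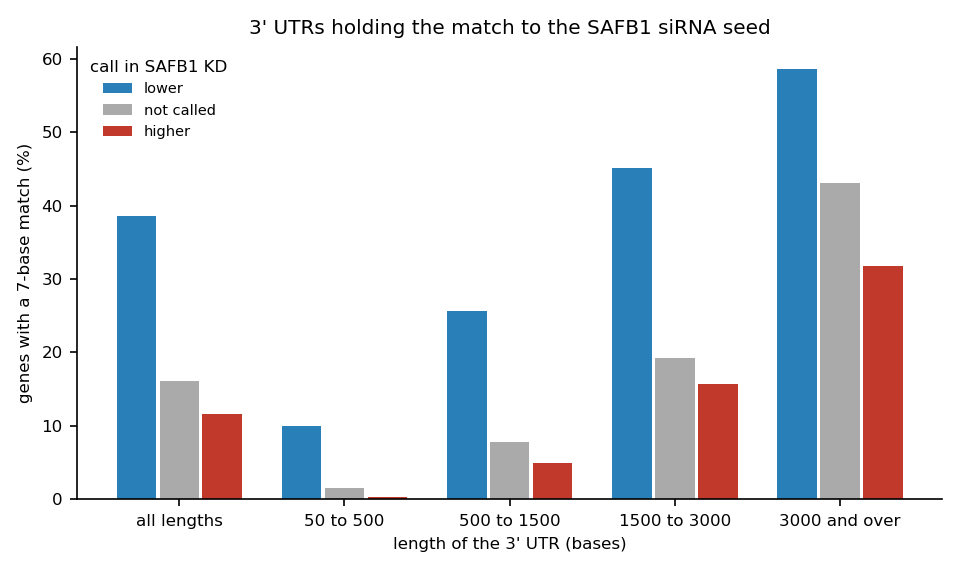
Percent of coding genes whose 3′ UTR holds the 7-base match to the SAFB1 siRNA seed (y axis, from 0), over all genes and by 3′ UTR length in bases (x axis), for genes called lower (blue), not called (grey) and called higher (red) in SAFB1 KD. In every length class genes called lower hold the match most often and genes called higher least often, at 45.1%, 19.2% and 15.8% between 1500 and 3000 bases.

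Read the other way, genes of at least 3 CPM were called lower in 6.16% of cases and higher in 11.5% with no match (9155 genes), 16.7% and 7.47% with 1 (1633), and 21.1% and 3.77% with 2 or more (478). The median log2 fold change against control was 0.02, -0.02 and -0.03 in these classes, while the median 3′ UTR lengthened from 1185 to 2942 and 4974.5 bases. In SLTM KD, whose cells did not receive this siRNA, the medians against the same control libraries were 0.00049, -0.01 and -0.03. Between SAFB1 KD and SLTM KD they were 0.02, 0.00247 and -0.00877. In each of these comparisons the medians went down with the number of matches. With the word of 1 more A (867 genes, median 3′ UTR 3526 bases), 24.9% were lower and 4.61% higher. The median there was -0.0419 in SAFB1 KD and -0.0167 in SLTM KD against control, and -0.0206 between SAFB1 KD and SLTM KD. What sets these medians was not tested. With the match outside the 3′ UTR only, 9.63% were lower and 9.35% higher (1744 genes).

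Of the 11 lowest coding genes besides SAFB, 5 held the word in the 3′ UTR. Their sites are shown beside the sense core because the word is what they share with it, and it is in capitals.
TNFRSF21 site: gaaggaccgauAUCAGAAa
XK site: cucacaagguuAUCAGAAa
SAXO2 site: uauuauaagaaAUCAGAAu
SLC25A22 site: ccucccgucacAUCAGAAc
MYO6 first site: gugauuuuuguAUCAGAAu
MYO6 second site: uaauuuauaggAUCAGAAc
The TNFRSF21 site lies at chr6:47231580-47231598 on the minus strand and equals the sense core in 11 of 19 bases. The XK site lies at chrX:37731468-37731486 on the plus strand and equals it in 13 of 19. The others equal it in 8 to 11 bases, at chr15:82283197-82283215 (SAXO2, plus), chr11:790591-790609 (SLC25A22, minus), and chr6:75915863-75915881 and chr6:75918468-75918486 (MYO6, plus). All are GRCh38 positions in the 3′ UTR, and each count of equal bases includes the 7 bases of the word by which the sites were found. TNFRSF21 and XK, which fell the most of these 5, are the ones with the extra A. Of the 12 highest coding genes only TIGD1 held the word. POC1B, UBOX5, CFAP45, ZNF814, APLF and TEX22 did not hold it, in the 3′ UTR or elsewhere in the transcript used.

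The 12 highest coding genes included TIGD1, TIGD4, YY2 and SAFB2. TIGD1, derived from a Tigger DNA transposase, was at 8.19, 8.23 and 7.87 CPM in control and at 17.9, 17.3 and 17.04 CPM in SAFB1 KD (1.11 ± 0.0513, adjusted p = 3.35e-26). TIGD4, of the same family, was at 0.511, 0.712 and 0.728 CPM and rose to 1.26, 1.13 and 1.03 CPM. YY2, a retrocopy of the zinc-finger gene YY1 within the span of MBTPS2, was at 1.995, 1.961 and 1.774 CPM and rose to 3.60, 3.16 and 2.84 CPM. The knockdown libraries held more of each of these transcripts than any control library, as the naming rule asked, and TIGD4 and YY2 were rare.

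SCAMP4, a carrier protein of secretory membranes, was the most abundant of the 12 after SAFB2 and rose from 60.3 ± 1.03 to 90.5 ± 1.34 CPM (0.59 ± 0.0272, adjusted p = 3.35e-26). Of the zinc-finger genes, ZNF594 rose from 18.9 ± 0.315 to 29.3 ± 0.915 CPM, ZNF695 from 1.90 ± 0.0838 to 3.73 ± 0.195 CPM and ZNF66 from 2.60 ± 0.444 to 3.91 ± 0.114 CPM. PCDHGA9, a cell adhesion gene of the gamma protocadherin cluster, rose from 0.799 ± 0.210 to 1.53 ± 0.103 CPM, but its last exons are shared with the other genes of the cluster, so its count is uncertain. SRRM5 (0.81), SLC10A5 (0.73) and TMEM81 (0.53) completed the list, all under 3 CPM. Here too each stayed called under every alternative.

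**Figure D3:**
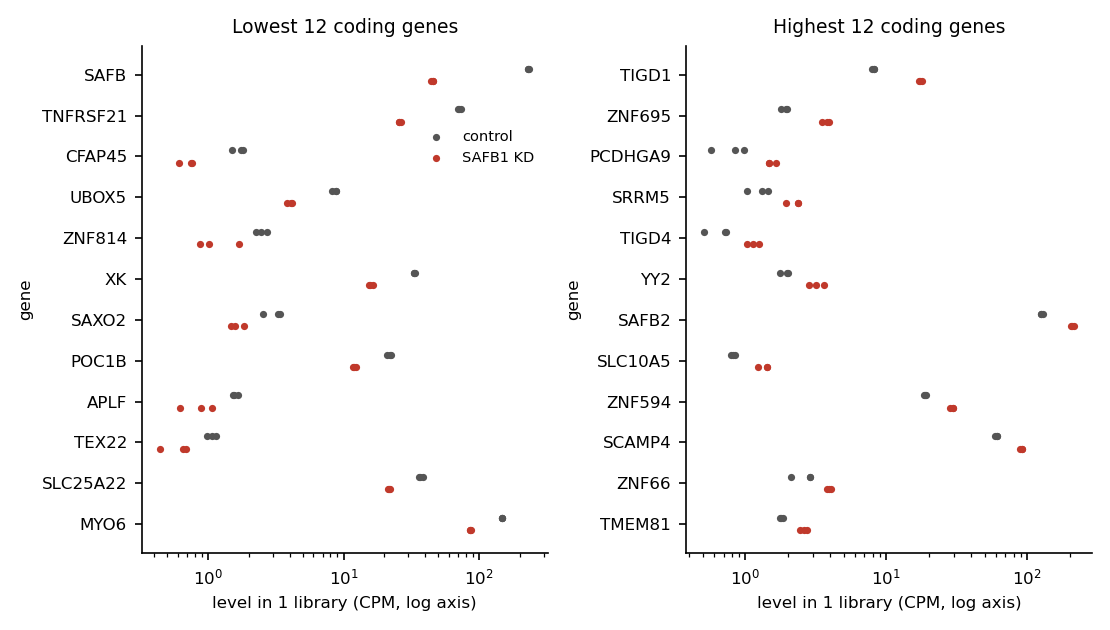
Level in each library in CPM (x axis, log scale) of the 12 lowest and 12 highest coding genes by log2 fold change (y axis), grey points for 3 control and red for 3 SAFB1 KD libraries. The points of the groups do not overlap in any row, as the naming rule asked, and the widest gap is that of SAFB.

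Outside the coding genes several of the largest rises were in RNAs that lie inside other genes. HSP90B2P is a processed pseudogene, copied from HSP90B1 (an endoplasmic reticulum chaperone), and lies within LRRC28. It had 20, 18 and 17 reads in control and 154, 109 and 134 in SAFB1 KD, or 0.262 ± 0.0502 and 2.12 ± 0.433 CPM (3.01 ± 0.183, adjusted p = 1.17e-20). ALMS1-IT1, an lncRNA within an intron of ALMS1, went from 51, 53 and 49 reads to 301, 335 and 206 (2.62 ± 0.128). DCAF13P3, in an intron of AP4E1, had only 1, 3 and 5 reads in control and 24, 24 and 15 in SAFB1 KD. Counts of these nested RNAs also take in reads from the unspliced or extended RNA of the host where it covers them on the same strand.

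The hosts of these RNAs differed among themselves. ALMS1 stood at 55.7 ± 1.90 CPM in control and 56.4 ± 1.67 CPM in SAFB1 KD (adjusted p = 0.818), and LRRC28 at 13.6 ± 0.109 and 12.2 ± 0.911 CPM (adjusted p = 0.0501). AP4E1 was called at -0.12 ± 0.0386 (adjusted p = 0.0431), a call lost with DESeq2 and limma-voom and without any 1 of control replicates 1 and 2 or the SAFB1 KD replicates. The pair of DNAH10OS and CCDC92 moved apart. DNAH10OS, an lncRNA on the strand of CCDC92 and inside its intron, was at 1.69, 1.87 and 1.66 CPM in control and at 3.94, 4.29 and 3.72 CPM in SAFB1 KD. CCDC92 fell from 19.9 ± 0.205 to 14.2 ± 1.27 CPM (-0.49 ± 0.0490, adjusted p = 7.57e-12).

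The remaining high noncoding genes were SEC14L1P1 (0.452 to 1.56 CPM), NPM1P9 (0.515 to 1.45), MAN1A2P1 (0.685 to 1.42), AGGF1P2 (0.834 to 1.52) and AJUBA-DT (0.577 to 1.06). The first 4 of these are processed pseudogenes, whose reads can resemble those of the parent gene. AJUBA-DT was no longer called without control replicate 3 or SAFB1 KD replicate 2 (adjusted p between 7.41e-05 and 0.0954 over its alternatives). The lowest noncoding genes were ZNF571-AS1 (1.15 to 0.367 CPM), MIR600HG (8.66 to 4.34), RN7SL2 (12.8 to 6.65), MT-TQ (2.39 to 1.26), GUCY1B2 (1.47 to 0.854), ARRDC3-AS1 (1.53 to 0.905), C9orf163 (1.03 to 0.575) and TMEM51-AS1 (1.10 to 0.680). RN7SL2, a signal recognition particle RNA with many near copies, had control libraries from 9.04 to 16.9 CPM, so its fall rests on an uneven baseline. TMEM51-AS1 was not called without SAFB1 KD replicate 2 (adjusted p between 0.00315 and 0.0691 over its alternatives).

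Processed pseudogenes were counted by their position. Of 706 inside an intron of a gene on the same strand, 26 (3.68%) were called higher and 4 lower, with a median log2 fold change of 0.12. Of 435 inside an intron on the opposite strand only, 0 were higher and 2 lower (edgeR, median -0.02). Of 1296 not wholly inside 1 intron of a coding or lncRNA gene on either strand, 22 (1.70%) were higher and 6 lower (median -0.02). Over all genes tested 5.04% were higher and 4.62% lower. Of 12737 genes under 1 CPM 60 were higher and 92 lower. Levels of the pseudogenes were low in all 3 classes (median 0.047 to 0.061 CPM in control). The count of 26 ranged from 11 to 28 over the alternatives (11 with DESeq2). The 26 had 23 distinct hosts that were tested. Of these hosts 4 were lower (AP4E1, CARF, ZRANB3 and MANBA), 1 was higher (SLC25A17) and 18 were not called. The median host log2 fold change was -0.04. Of all 3810 hosts of genes nested on their strand, 6.98% were lower and 7.14% higher. Of 7595 genes from 10 to 100 CPM 704 were lower and 724 higher. Adjusted p by edgeR was 0.0431 for AP4E1 and 0.0226 for CARF. ZRANB3, which encodes a DNA-annealing helicase and holds G3BP1P1, fell from 13.9 to 10.5 CPM (-0.41 ± 0.0553, adjusted p = 8.58e-08).

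Long noncoding RNA genes (5998 tested, median 0.132 CPM in control) were called higher in 50 cases (0.834%) and lower in 168 (2.80%), with a median log2 fold change of -0.08 beside 0.01 for coding genes, of which 1224 (7.64%) were higher and 1019 (6.36%) lower. Hosts of genes nested on their strand (3810) were called higher in 7.14% and lower in 6.98%. The higher counts of coding genes follow the library dependence given above, with as few as 660 of 1224 left when 1 of control replicates 1 to 3 or of SAFB1 KD replicates 1 and 2 was left out. For lncRNA genes 33 were higher without control replicate 3 and 111 lower without SAFB1 KD replicate 2.

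SAFB1 KD was next compared with the other knockdowns. These comparisons use the same SAFB1 KD libraries that chose the named genes, so their counts are not independent of that choice. Between SAFB1 KD and SLTM KD, 2473 genes (9.27%) were higher in SAFB1 KD and 1809 (6.78%) lower. Of the 12 lowest coding genes 10 were lower in SAFB1 KD than in SLTM KD, and only CFAP45 and TEX22 were not called. Of the 12 highest, 11 were higher than in SLTM KD and only TIGD4 was not called. TNFRSF21, for instance, stood at 70.2 CPM in SLTM KD (log2 difference -1.43, adjusted p = 3.33e-42), XK at 31.8 CPM and TIGD1 at 7.73 CPM.

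Triple KD differed from SAFB1 KD in 9308 genes (34.9%), 4333 (16.2%) higher and 4975 (18.6%) lower in triple KD. Of the 12 lowest coding genes of SAFB1 KD, 9 were lower still in triple KD, POC1B most clearly (12.04 to 2.11 CPM, log2 difference -2.51, adjusted p = 4.81e-38). CFAP45 went from 0.707 to 0.111 CPM. TNFRSF21 was at 26.1 CPM in SAFB1 KD and 24.9 CPM in triple KD and was not called (log2 difference -0.07, adjusted p = 0.175), and neither were APLF and TEX22. Of the 12 highest, 9 were higher still, among them YY2 (3.20 to 10.5 CPM) and ZNF695 (3.73 to 5.67 CPM). SAFB2, itself a target in triple KD, and SCAMP4 (90.5 to 71.0 CPM) went the other way.

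Among the high noncoding genes, 6 of 8 rose further in triple KD, HSP90B2P from 2.12 to 14.4 CPM and SEC14L1P1 from 1.56 to 7.93 CPM. MAN1A2P1 was not called. DNAH10OS went back, from 3.98 CPM in SAFB1 KD to 0.620 CPM in triple KD (log2 difference -2.70, adjusted p = 1.98e-24), and it stood at 0.495 CPM in SLTM KD. Both SLTM KD and triple KD were below control for DNAH10OS (adjusted p = 5.21e-12 and 6.94e-12).

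**Figure D4:**
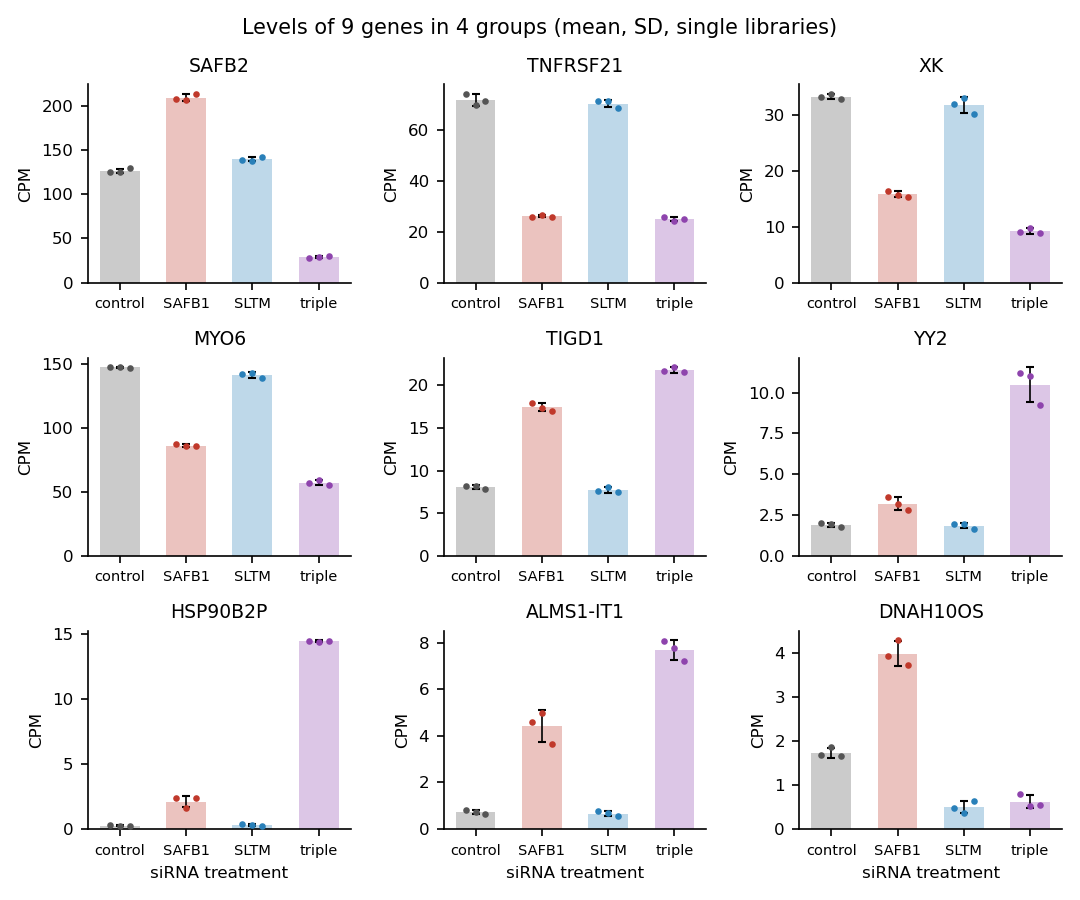
Levels of 9 genes in CPM (y axis from 0, own scale per gene) in control, SAFB1 KD, SLTM KD and triple KD (x axis), with points for libraries and bars with whiskers for the mean and SD of 3. TNFRSF21 is at 26.1 CPM in SAFB1 KD and 24.9 CPM in triple KD, HSP90B2P and YY2 are highest in triple KD, and DNAH10OS is highest in SAFB1 KD.

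Gene lists were described by how many members were called, beside 5.04% higher and 4.62% lower over all genes. That share is a low standard for lists of abundant genes, since the median gene tested stood at 1.41 CPM in control. Of 7595 genes from 10 to 100 CPM 18.8% were called (724 higher, 704 lower). Of 2389 genes over 100 CPM 25.9% were called (453 higher, 165 lower). Genes for proteins that associate with SAFB1 were higher in 4 of 5 cases. ZNF638, an RNA-binding zinc-finger protein, was at 151, 159 and 162 CPM in control and rose to 204, 213 and 217 CPM (0.42 ± 0.0234, adjusted p = 1.49e-22). RBMXL1, a retrocopy of the splicing regulator gene RBMX, was at 33.4, 34.3 and 32.6 CPM and rose to 44.1, 47.2 and 44.5 CPM. RBMX rose from 473 to 529 CPM and RBM12B from 48.9 to 55.3 CPM. Each of the 4 had no overlap between the groups, as had 96.4% of called genes and 25.2% of all genes tested. NCOA5 was not called (-0.07, adjusted p = 0.0677), though its SAFB1 KD libraries all lay below its control libraries. The list was drawn from the study, which limits what its direction can show, as is true of the retrogene, element host and giant exon lists that follow.

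Retrogenes that lie within other genes were called higher or not at all, and the genes around them lower or not at all. Of 5 listed, 4 were found among the genes tested. RBMXL1 and YY2 were higher, and UTP14C (-0.03) was not called. GALNT4 (0.24 ± 0.273) was not called either, at only 0.360 CPM in control and 0.416 CPM in SAFB1 KD. Of 5 retrogene hosts 3 were lower and 0 higher, namely POC1B, which surrounds GALNT4, KYAT3, a kynurenine aminotransferase gene that overlaps RBMXL1 on the same strand, and MBTPS2, the site-2 protease gene that surrounds YY2. KYAT3 was at 28.1, 27.9 and 29.8 CPM in control and at 22.2, 22.3 and 22.8 CPM in SAFB1 KD (-0.35 ± 0.0408). MBTPS2 fell less, from 74.2 ± 1.83 to 65.2 ± 0.962 CPM (-0.19 ± 0.0300). HM13 (-0.03) and ALG11 (0.01) were not called.

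Of 7 hosts of transposable elements named in the study, 3 were lower and 0 higher. HIBADH, an enzyme of valine breakdown, was at 36.9, 38.1 and 39.0 CPM in control and at 25.1, 24.7 and 26.1 CPM in SAFB1 KD (-0.59 ± 0.0366, adjusted p = 3.96e-20). RB1, the retinoblastoma tumour suppressor, was at 146, 147 and 144 CPM and fell to 127, 126 and 118 CPM. FNTA, a farnesyltransferase subunit, fell from 46.7 to 39.8 CPM. CENPQ (-0.03), DTL (-0.05), LONRF3 (-0.11) and RAD54L2 (0.08) were not called. HIBADH and RB1 were lower still in triple KD (15.1 and 54.4 CPM), whereas FNTA stood at 40.8 CPM there and was not called against SAFB1 KD (adjusted p = 0.521).

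Genes with a giant coding exon were higher in 5 of 9 cases and lower in 0. NASP, a histone chaperone, was at 356, 367 and 362 CPM in control and rose to 437, 435 and 448 CPM (0.28 ± 0.0201, adjusted p = 8.72e-18), and NIN, a centrosome protein, rose from 149 to 169 CPM. MAP4, CLIP1 and ANK2, which bind microtubules or the membrane skeleton, rose by 0.09 to 0.11 on the log2 scale. Without control replicate 2 or SAFB1 KD replicate 2 the count of 5 was 3. Counts over whole genes do not show whether the giant exon itself was used more. Of 12 genes derived from Tigger or pogo transposases, 4 were higher (TIGD1, TIGD4, TIGD7 and POGZ) and POGK was lower. TIGD7 rose from 6.01 ± 0.142 to 7.58 ± 0.342 CPM, and POGK fell from 90.3 ± 0.671 to 75.3 ± 1.74 CPM.

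**Figure D5:**
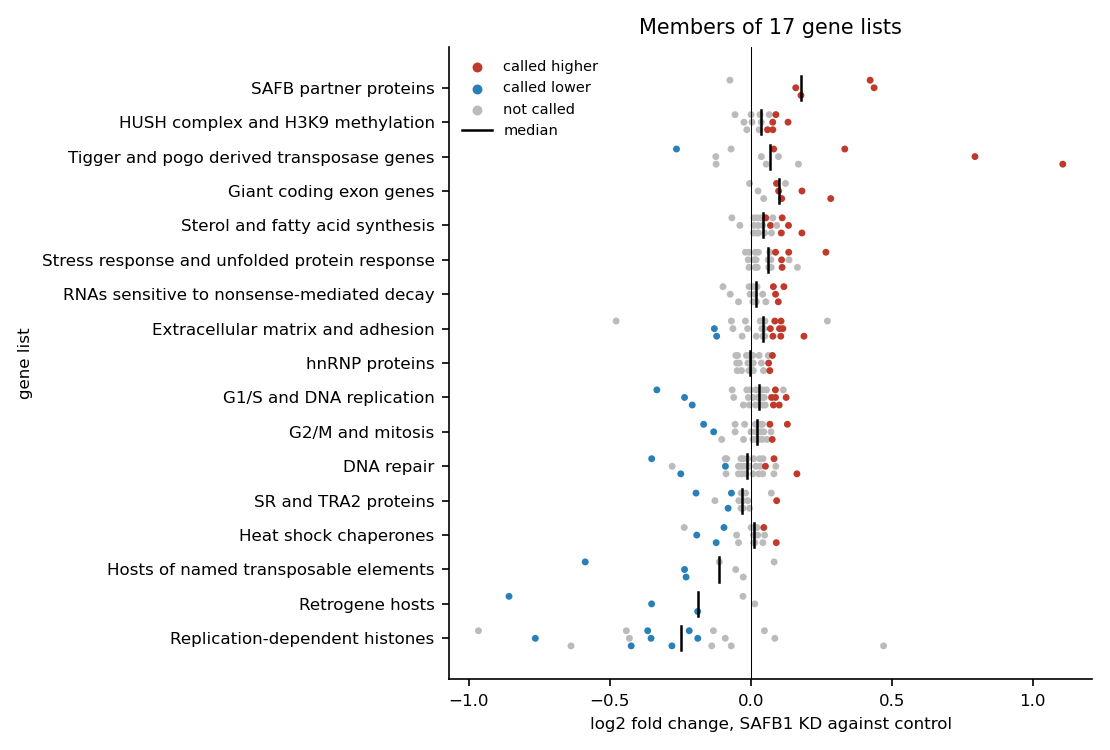
Log2 fold change of SAFB1 KD against control (x axis) of each tested member of 17 gene lists (y axis), red for members called higher, blue for lower and grey for not called, with a black line at the list's median. TIGD1 (1.11) lies farthest to the right, and the called members farthest to the left are POC1B (-0.86), H1-4 (-0.76) and HIBADH (-0.59).

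Genes that silence repeats changed by little. The HUSH complex and the enzymes and readers of H3K9 methylation, 14 genes in all, had 5 higher and 0 lower, with CBX1, a heterochromatin protein, first (118 to 129 CPM, 0.13 ± 0.0235, adjusted p = 3.33e-05), followed by MORC2 (0.09), PPHLN1 (0.08), EHMT2 (0.08) and TRIM28 (0.06). This count of 5 fell to 1 without any 1 control library, to 2 without SAFB1 KD replicate 1 or 2 and to 3 without SAFB1 KD replicate 3. Among 15 tested L1 restriction factors DNMT1 and SAMHD1 were higher (0.09 and 0.08), and SAMHD1 was no longer called without any 1 control library or SAFB1 KD replicate 2. Of 13 genes of the RNA interference machinery, through which the siRNA acts, only DGCR8, a microRNA processing factor, was called: it was at 80.0, 79.2 and 80.7 CPM in control and fell to 72.1, 68.4 and 69.6 CPM. Of 23 interferon-stimulated genes, which double-stranded RNA can induce, IFI6 was higher (0.15) and IFIT5 lower (-0.11). The call of IFI6 was lost when any 1 of the 6 libraries was left out, and that of IFIT5 when any 1 but control replicate 2 was.

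Splicing factors moved in both directions. Of 14 SR and TRA2 genes, which guide splice-site choice, TRA2A (99.9 to 87.3 CPM), SRSF6 (-0.08) and TRA2B (-0.07) were lower and SRSF4 (0.09) higher. Of 25 hnRNP genes PTBP1, RALY and HNRNPA0 were higher by 0.06 to 0.08, of which 0 stayed without control replicate 2 or 3 or SAFB1 KD replicate 2 and 1 without SAFB1 KD replicate 1. Among the genes of the nuclear matrix and paraspeckles the lamin genes LMNB2 (0.18), LMNB1 and LMNA were higher, and NEAT1, the RNA that builds paraspeckles, was lower. NEAT1 was at 37.0 ± 3.09 CPM in control and 29.3 ± 4.76 CPM in SAFB1 KD, and its libraries overlapped. Of 16 RNAs sensitive to nonsense-mediated decay 4 were higher (SMG5, ATF4, SNHG5 and UPF3B, by 0.08 to 0.12), and 2 without any 1 of the control libraries or of SAFB1 KD replicates 1 and 2.

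Of 18 tested replication-dependent histone genes 7 were lower and 0 higher, with a median log2 fold change of -0.25. H2BC12 was at 64.4, 66.1 and 66.1 CPM in control and at 50.5, 54.8 and 56.9 CPM in SAFB1 KD (-0.28 ± 0.0328, adjusted p = 1.67e-09). H1-4 was at 2.19, 2.22 and 3.38 CPM and at 1.24, 2.004 and 1.33 CPM (-0.76 ± 0.148). Histone mRNAs are mostly not polyadenylated, and poly(A) selection retains few of them. H2AC11 and H1-2 were lower as well (-0.37 and -0.19).

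Among cell cycle and repair genes, calls fell on both sides. Of 29 G1/S and replication genes 6 were higher (3 without SAFB1 KD replicate 2), led by CDC45 (0.13), and RRM2, RB1 and CDK6 were lower. RRM2, a ribonucleotide reductase subunit, was at 166, 164 and 161 CPM in control and at 134, 130 and 125 CPM in SAFB1 KD (-0.33 ± 0.0264). Of 25 G2/M genes CDC20, BIRC5 and TOP2A were higher and CENPF (-0.17) and MKI67 (-0.13) lower, with 1 higher without control replicate 1 or SAFB1 KD replicate 3 and 4 lower without control replicate 1. Of 30 DNA repair genes 3 were higher (1 without control replicate 3) and 3 lower, and BRCA2, which acts in homologous recombination, showed the largest of these changes: it was at 49.3, 49.9 and 49.6 CPM and fell to 38.8, 38.8 and 39.2 CPM (-0.35 ± 0.0341). Of 18 p53 targets CDKN1A (0.14), FDXR and AEN were higher, and MDM2, which degrades p53, fell from 140 to 119 CPM, and SESN1 was lower (-0.10). FDXR and AEN both lost their calls without control replicate 2 or SAFB1 KD replicate 2, and 1 p53 target was lower without control replicate 2 or any 1 SAFB1 KD library.

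Calls among stress, sterol, adhesion and apoptosis genes were mostly small. Adhesion genes were called in 40% of cases, sterol genes in 28.6%, stress genes in 22.7% and apoptosis genes in 16.7%. The share was 18.8% of genes from 10 to 100 CPM and 25.9% over 100 CPM. Of 22 genes of the integrated stress and unfolded protein responses 5 were higher (3 without SAFB1 KD replicate 2) and 0 lower. PDIA4, a protein-folding enzyme of the endoplasmic reticulum, was at 174, 172 and 179 CPM in control and rose to 206, 209 and 218 CPM (0.27 ± 0.0224, adjusted p = 1.30e-14), while PHGDH, ATF4, DDIT4 and EIF2AK3 rose by at most 0.14. Of 21 sterol and fatty acid genes 6 were higher and 0 lower, led by INSIG1 (78.0 to 88.4 CPM), which restrains sterol synthesis, though only 2 were higher without control replicate 2 and 3 without control replicate 1 or SAFB1 KD replicate 2 or 3. Of 25 genes of the extracellular matrix and adhesion 8 were higher (5 without control replicate 1 or 3 or SAFB1 KD replicate 1, and 4 without SAFB1 KD replicate 2), among them NID1, LAMC1 and CDH2 (each 0.11), and the integrin genes ITGA1 and ITGA2 were lower. Heat shock genes had HSP90AB1 and HSF2 higher and CHORDC1, HSPA1B and BAG3 lower of 18, but 0 were higher when any 1 library was left out. Of 24 apoptosis genes MCL1, BAK1 and RIPK1 were higher (0.08 to 0.16, with 1 left without control replicate 1 or 2), and TNFRSF21 was the only death receptor or other member called lower. Among XK and its 8 partners or relatives VPS13B was lower as well (-0.16).

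Few genes changed in the other lists. RPSA was the only 1 of 31 ribosomal protein genes called (0.06), and MT-ND1 and MT-CO1 were the only 2 of 13 mitochondrially encoded genes (0.11 and 0.08), both of these with overlapping libraries. RPSA was called in 5 of its 13 alternatives and was lost when any 1 library but control replicate 3 was left out. MT-ND1 and MT-CO1 were both lost with DESeq2 or limma-voom and without control replicate 1 or SAFB1 KD replicate 3. MT-CO1 was also lost with filterByExpr and without control replicate 2 or SAFB1 KD replicate 1. Of 22 gamma protocadherins PCDHGA9 and PCDHGC3 were higher, the latter only with all of control replicates 1 to 3 and SAFB1 KD replicates 1 and 2 in the fit. Among marker genes NEFL rose from 195 to 223 CPM, CDX2 was higher (0.15, not called without control replicate 2 or SAFB1 KD replicate 2) and LGR5 lower (-0.22), and 0 germ cell, squamous, fibroblast or leukocyte genes were called by edgeR.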

How the data were processed

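Poly(A)-selected RNA from HEK293 cells was sequenced as strand-specific libraries (KAPA Stranded kit). The authors trimmed reads with cutadapt, mapped them with STAR 2.7.9a (GRCh38, GENCODE annotation, a second pass after junction discovery), and deposited raw read counts per gene from the reverse-stranded setting, 1 library per file and neither normalised nor pooled. Reads that fit several places equally well are not in these counts, which bears on pseudogenes, RN7SL2 and other copied genes.

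Groups came from the sample titles. Of 58780 gene IDs, 58207 (99.0%, with 99.9% of counts) were found in GENCODE 44 of the same build, which gave symbols, biotypes, introns and 3′ UTRs (the MANE Select transcript, or else the one with the longest 3′ UTR). The 26688 genes with at least 10 counts over the 12 libraries were fitted together with edgeR 4.0.16 in R 4.3.3 (TMM factors, 1 term for group). Each gene had a quasi-likelihood F test (two-sided), p-values were adjusted by Benjamini and Hochberg's method over the whole table, and glmTreat was used for a 2-fold change. Errors of log2 fold changes are standard errors of the fit. CPM values are scaled by TMM.

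Named genes were the 12 highest and 12 lowest coding and the 8 highest and 8 lowest other genes under the rule given in the text, the hosts of nested ones, the SAFB family, genes past 2-fold and up to 4 called members of each of 35 lists with the smallest adjusted p. A few further called members, and members not called, were named after their values were seen. A nested gene lies wholly within 1 intron of its host. The members, lists, classes and seed comparison were chosen with earlier results of these data known. The siRNA sequence came from the study's oligo list. Fitting was tested on simulated counts. Alternatives were upper-quartile scaling, DESeq2 1.42.0, filterByExpr, no filter, limma-voom (limma 3.58.1), only the 6 libraries compared, a replicate block and leaving out each library. Tables were made in Python 3.11.15 (pandas 2.3.3, numpy 2.4.6). A few members of the lists are not reported here by name.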

Additional observations from a re-analysis of the deposited data

How the results depend on the processing

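Of the 127 named genes called in SAFB1 KD against control, 92 stayed called under every alternative, and 33 of the 35 that did not had a log2 change under 0.2 in size. No named gene that was called changed sign, and ALMS1, which was not called, changed sign under 2 alternatives. The number of genes called lower stayed between 951 and 1204 when any 1 of the 6 libraries was left out, and that of genes called higher between 750 and 1053. For genes past 2-fold the same omissions gave 3 to 5 higher and 2 lower in each, while DESeq2 and the fit of only the 6 libraries gave 3 higher and limma-voom 2. With the 8-base seed match the share was 22.4% of lower, 3.36% of higher and 6.22% of genes not called, beside 38.6%, 11.6% and 16.1% with the 7-base match. Of 1222 list and class counts under alternatives, 193 moved by more than 1.5 times. Genes under about 1 CPM were seldom called at this depth, and small changes in pseudogenes and lncRNA genes may have been missed.

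The titles number the replicates but do not say whether libraries of the same number were handled together. Deviations of same-numbered SAFB1 KD and control libraries correlated at 0.145, -0.0435 and 0.161 for numbers 1, 2 and 3. Those of libraries with different numbers correlated at -0.200 to 0.0908. A replicate block gave 1847 genes higher and 1569 lower, both within 1.5 times of the counts without it. It kept all 2577 calls made without it. Whether libraries of the same number share a batch was not tested.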
